A study of Homo sapiens with 9 samples.

Results

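Megakaryocyte and platelet genes were examined for open chromatin in ATAC-seq peak lists of K562 cells. The 9 genes were ITGA2B, ITGB3, GP1BA, GP9, PF4, PPBP, SELP, TUBB1 and VWF. A peak was counted at a gene when the centre of its interval fell between 10 kb before and 10 kb after the gene (GRCh37). Among the 50000 strongest peaks of each library, ranked by −log10 p, the peaks merged into 106131 sites over the 9 libraries, and 26 of these lay at the 9 genes. In the full lists 85 of 738271 merged sites did. A site was an own promoter when the centre of any of its peaks lay within 1 kb of a protein-coding start of the gene. It was a neighbour's promoter when this held for another gene only. All other sites were called distal.

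K562 is a human leukaemia line, of chronic myeloid origin, with erythroid and megakaryocytic features. ATAC-seq marks open DNA by the insertion of adapters with the transposase Tn5, here with 50000 cells per replicate. The 3 groups, of 3 libraries each, were parental K562 cells that are wild type for STAG2, 1 line heterozygous for STAG2 R614* and 1 line homozygous for it. The mutations had been introduced by CRISPR-Cas9, and STAG2 encodes a subunit of the cohesin ring. The homozygous cells were grown attached and lifted with trypsin, so genotype, the particular line and attached growth cannot be told apart. The labels do not say that replicates were separate cultures, so the p-values measure only the spread between these libraries.

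Megakaryocytes are the large marrow cells that shed platelets. Their late genes encode the receptors by which platelets stick to a vessel wall and to each other, the cargo of their alpha granules, and the special tubulin that shapes the platelet. GATA1, RUNX1, FLI1 and other ETS factors, TAL1 and NFE2 are known to act at such genes. K562 cells can be driven towards this lineage by phorbol ester, but no such treatment is named for these libraries. Peaks show where DNA was open, not how much RNA was made, and in a population of cells an opening in more cells and a wider opening per cell cannot be told apart.

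The lists held 181407 to 319697 peaks per library on chromosomes 1 to 22 and X, and the read depth is unknown. They were not all independent. Wild type replicate 3 and heterozygous replicate 1 shared 46.0% of the shorter list's intervals at identical coordinates, wild type replicates 1 and 2 shared 23.2%, and heterozygous replicates 2 and 3 shared 1.17%. At the 9 genes, 13 of the 36 intervals of wild type replicate 3 were identical to ones of heterozygous replicate 1. In the other 33 pairs of libraries the share was 0.223% to 0.351%. The label K562 was checked at promoters: of 7 genes of that lineage 2 had a promoter peak among the 50000 strongest in all 9 libraries and 2 had none in any, while of 12 genes of other cell types 4 had one in all 9 and 6 had none. The lineage genes with none were KLF1, an erythroid factor, and GATA1, a factor of both lineages. In the full lists GATA1 had a promoter peak in 8 libraries and KLF1 in 4. Of the 6 genes of other cell types with none among the strongest, only CDH5 had any there, in 2 libraries. Promoter peaks among the 50000 strongest therefore did not set K562 apart from other cell types.

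Sequences of some of the intervals that the results below turn on were read from the GRCh37 genome, each 250 bases long. Promoters end at the base before the canonical start site, and other windows are centred on the median centre of the peaks. Capitals mark matches, on either strand, to fixed motifs. The motif of GATA factors was searched as AGATAA and in its other form TGATAA. That of ETS factors was searched as CCGGAA and otherwise as CAGGAA. RUNX was searched as TGTGGT and in its other form TGCGGT, the AP-1 motif as TGAGTCA, and the E-box as CAGATG and otherwise as CAGCTG. The MAF recognition element, which contains the AP-1 letters, and the CTCF motif were searched too. A match is a stretch of letters and not evidence of binding. The promoters of TUBB1 and ITGA2B are shown because the peak there was found in few libraries.
TUBB1 promoter, + strand, chr20:57594234-57594483: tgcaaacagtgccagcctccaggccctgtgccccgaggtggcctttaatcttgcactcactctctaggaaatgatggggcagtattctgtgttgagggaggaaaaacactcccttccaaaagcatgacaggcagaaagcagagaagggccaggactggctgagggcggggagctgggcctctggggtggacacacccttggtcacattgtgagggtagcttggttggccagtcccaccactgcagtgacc
ITGA2B promoter, − strand, chr17:42467018-42467267: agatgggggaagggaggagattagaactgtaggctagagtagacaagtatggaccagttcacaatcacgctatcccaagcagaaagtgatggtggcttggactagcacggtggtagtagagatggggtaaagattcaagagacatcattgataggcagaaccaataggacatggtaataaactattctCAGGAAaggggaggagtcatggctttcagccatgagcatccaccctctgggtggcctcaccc
The window upstream of an internal ITGA2B start is shown because it was the own-promoter site found in all 9 libraries.
ITGA2B internal start, − strand, chr17:42462709-42462958: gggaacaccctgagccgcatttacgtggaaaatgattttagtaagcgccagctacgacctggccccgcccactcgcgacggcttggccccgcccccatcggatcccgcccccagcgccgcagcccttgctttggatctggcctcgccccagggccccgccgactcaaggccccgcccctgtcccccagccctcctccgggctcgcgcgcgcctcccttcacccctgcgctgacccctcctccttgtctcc
The next 2 are the distal sites of TUBB1 and VWF that were found in all 9 libraries, and the last is the distal site of GP9.
TUBB1 intron, + strand, chr20:57596143-57596392: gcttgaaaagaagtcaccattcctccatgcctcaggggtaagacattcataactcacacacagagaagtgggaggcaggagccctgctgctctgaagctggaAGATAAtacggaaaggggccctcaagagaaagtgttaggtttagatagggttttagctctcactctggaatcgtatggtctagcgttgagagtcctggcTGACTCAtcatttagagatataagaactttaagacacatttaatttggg
VWF intron, − strand, chr12:6124490-6124739: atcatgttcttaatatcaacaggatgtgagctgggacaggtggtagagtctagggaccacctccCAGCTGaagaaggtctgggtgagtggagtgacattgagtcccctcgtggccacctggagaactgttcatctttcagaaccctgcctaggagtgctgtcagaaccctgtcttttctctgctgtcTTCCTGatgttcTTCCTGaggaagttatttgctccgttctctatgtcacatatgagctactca
GP9 upstream, + strand, chr3:128773508-128773757: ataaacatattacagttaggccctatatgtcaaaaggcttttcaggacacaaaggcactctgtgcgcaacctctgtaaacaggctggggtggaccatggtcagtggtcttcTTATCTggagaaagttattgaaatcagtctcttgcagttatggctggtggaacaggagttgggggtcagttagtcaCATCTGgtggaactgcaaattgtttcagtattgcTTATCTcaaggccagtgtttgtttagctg

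The ITGA2B promoter window shown held 1 ETS match and that of TUBB1 held none of the motifs searched. Windows centred on the peaks at these promoters reach past the ones shown. There TUBB1 held a RUNX match, and ITGA2B held a RUNX match and E-boxes. The TUBB1 intron window held a GATA and an AP-1 match, and the GP9 window held 2 GATA matches and an E-box. The VWF intron window held ETS matches and an E-box. Over the 9 canonical promoters, 3 held a GATA match, 4 an ETS match, 5 a RUNX match and 3 an E-box, and 0 held the other motifs. Among 19471 canonical promoters of protein-coding genes, in windows of the same length, the shares were 10.3%, 37.2%, 15.4% and 20.7%, with 3.07% for AP-1, 2.39% for CTCF and 0.0719% for the MAF element. Among the windows of the 26 sites, 5 held a GATA match, 10 an ETS match, 8 a RUNX match, 4 an AP-1 match, 10 an E-box and 1 a CTCF match, beside 26.3%, 29.8%, 23.4%, 12.2%, 31.1% and 6.17% of all 106131 sites. The MAF element was in 0 of the 26 and in 0.725% of all sites. The 9 promoters had a median GC content of 50%, and all promoters had 63.2%.

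Few of the 9 genes had an open promoter of their own. Of the 26 sites, 4 were own promoters, at ITGA2B (2 sites), ITGB3 and TUBB1. Another 4 were promoters of neighbouring genes and 18 were distal. An own-promoter peak among the 50000 strongest was found in all 9 libraries at 1 of the 9 genes and in at least 1 library at 3 of 9. Of 20090 protein-coding genes, 44.9% had one in all 9 libraries and 68.4% in at least 1. In the full lists, which reach down to weak peaks, 2 of 9 genes had one in all libraries and 6 of 9 in at least 1, beside 63.1% and 86.2% of all genes. The genes were not poor in peaks as such: their median number of peaks among the 50000 strongest was 3.08 per 100 kb of gene and flank, and that of all genes was 2.92. TUBB1 had the densest cover of the 9, with 8.98 peaks per 100 kb.

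Of the 26 sites, 7 were found in all 9 libraries among the 50000 strongest peaks (18.1% of all sites) and 10 were found in 1 library only (30.4% of all sites). Only 1 of these 7, the internal start of ITGA2B, was an own promoter. The others were 3 promoters of neighbours (next to GP1BA, SELP and TUBB1) and 3 distal sites (in SELP, TUBB1 and VWF). Of the 85 full-list sites 14 were found in all 9 libraries (7.15% of all sites) and 27 in 1 library (43.2% of all sites).

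**Figure D1:**
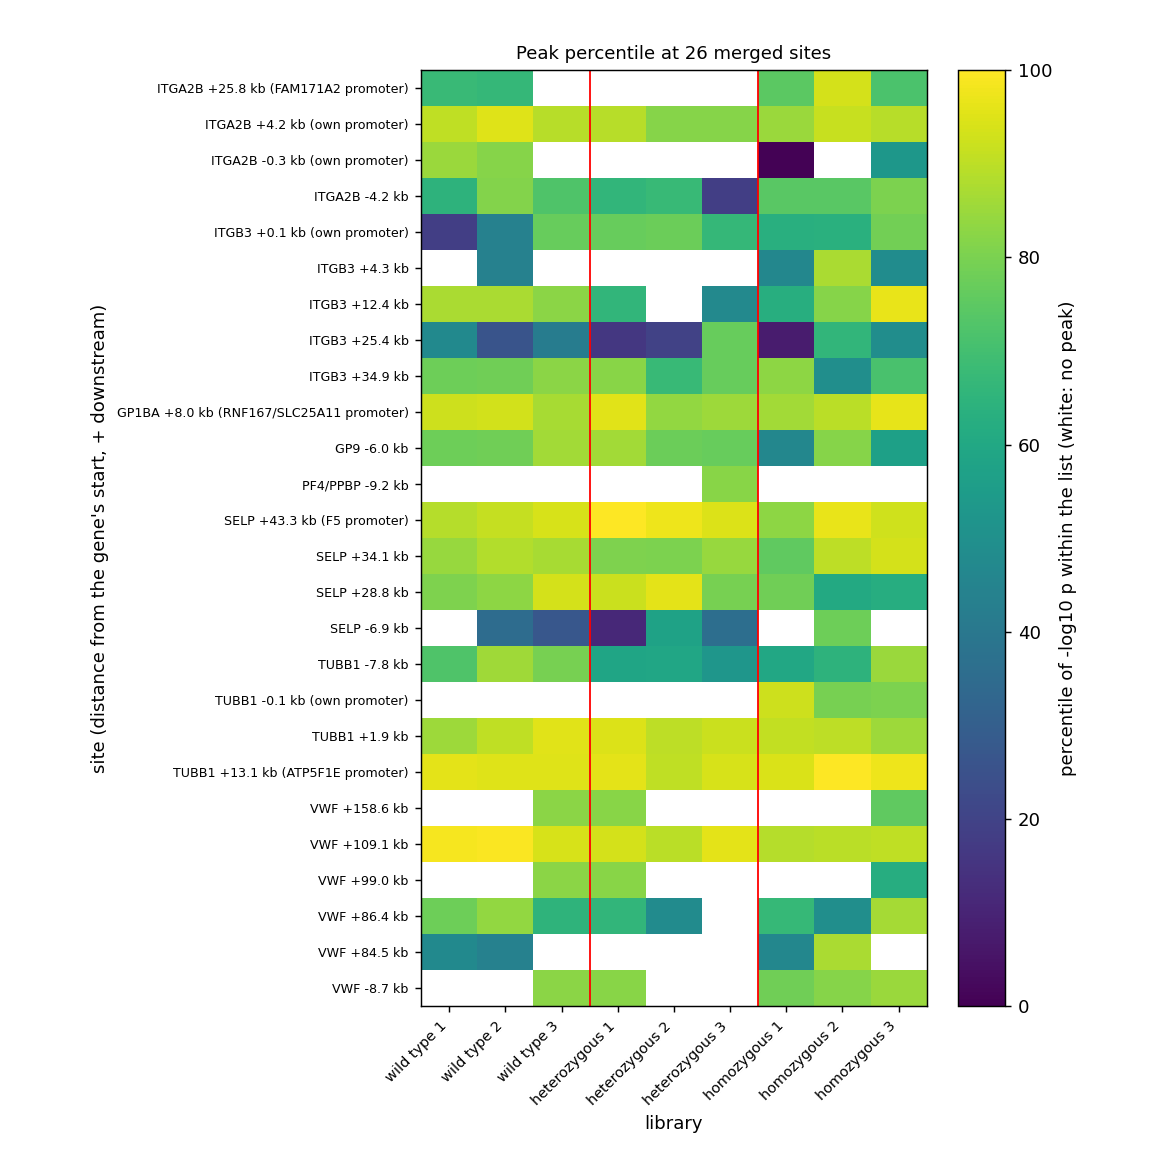
Percentile of −log10 p within each library's own full list (colour) at the 26 merged sites of the 9 genes (rows, with the distance from the canonical start in kb) in the 9 libraries (columns); white means no peak in the full list. The row of the TUBB1 promoter is white in all wild type and heterozygous libraries and coloured in the 3 homozygous ones, and the VWF intron site is strong throughout.

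TUBB1 encodes beta-1 tubulin, the tubulin of the microtubule coil that gives platelets their disc shape. Of the 26 sites, only its promoter had a full-list peak in all 3 homozygous and in none of the 6 other libraries. Of all sites 1.92% did. The values below are percentiles, the share of the library's own full list with a lower −log10 p, and 0 stands for no peak. At chr20:57594167-57594694, centred 54 bp upstream of the start site of TUBB1 (chr20:57594484-57601709, + strand), all 3 wild type and all 3 heterozygous libraries had no peak even in the full lists. Homozygous replicates 1, 2 and 3 had peaks at percentile 92.5, 79.5 and 80.4. The authors' caller gave these peaks a fold enrichment of 6.70, 4.37 and 4.29 and a −log10 p of 10.5, 5.75 and 5.96, and they ranked 13646, 40687 and 62685 in their lists. The homozygous libraries did not overlap the wild type or the heterozygous ones, which were equal. The homozygous mean was 84.1 ± 7.25 (SD, n = 3) against 0 in both other genotypes.

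An exact permutation test of the 3 genotypes gave p = 0.0357 at the TUBB1 promoter, and p = 0.21 after Benjamini-Hochberg adjustment over the 106131 sites, so the site did not pass. With no peak in the 6 other libraries, peaks in the 3 homozygous ones give this unadjusted p whatever their percentiles. Over all protein-coding genes, an own-promoter peak in all 3 homozygous libraries and in none of the 6 others was found in 0.533%, and among the 9 genes it was found in 1. Counted by site, 1 of the 26 sites, this promoter, had full-list peaks in that pattern, beside 1.92% of all 106131 sites. Since the peak of homozygous replicate 3 fell outside the 50000 strongest, this promoter was not counted as separating the genotypes at that depth. Chromosome 20 as a whole held more of the 50000 strongest peaks in homozygous libraries (1.85% ± 0.0623, SD, n = 3) than in wild type (1.5% ± 0.0395, SD, n = 3). The part of this shift in the promoter's result was not tested.

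The other TUBB1 sites of the 50000 strongest peaks had a peak in every full list. In an intron at chr20:57595923-57596802, 1878 bp downstream of the start, the percentiles were 85.3, 90.3 and 95.7 in wild type, 94.8, 90.1 and 92.0 in heterozygous and 90.7, 90.1 and 85.2 in homozygous libraries. The 3 genotypes overlapped there. The site nearest to the 3′ side, 13050 bp from the start, lay at the promoter of ATP5F1E, a subunit gene of the mitochondrial ATP synthase, and was at percentile 90.5 to 99.7 in all 9 libraries. At 7794 bp upstream the percentiles were 72.3, 85.8 and 79.7 in wild type, 58.9, 59.3 and 52.4 in heterozygous and 59.8, 64.6 and 84.9 in homozygous libraries. The heterozygous libraries were below the wild type and the homozygous ones there. TUBB1 had 3 full-list peaks in each wild type library, 3, 4 and 5 in the heterozygous and 5, 6 and 5 in the homozygous ones (exact permutation p = 0.0429, adjusted p = 0.373 by Benjamini-Hochberg). Among the 50000 strongest TUBB1 had 2, 3 and 2 peaks in the wild type libraries, 2 in each heterozygous and 3 in each homozygous one (exact permutation p = 0.143, adjusted p = 0.828 by Benjamini-Hochberg). TUBB1 was the 1 gene of the 9 with an unadjusted p under 0.05 for peak number in the full lists, beside 11.9% of all genes, and the 1 whose homozygous counts were all above the wild type ones, beside 8.5% of all genes.

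**Figure D2:**
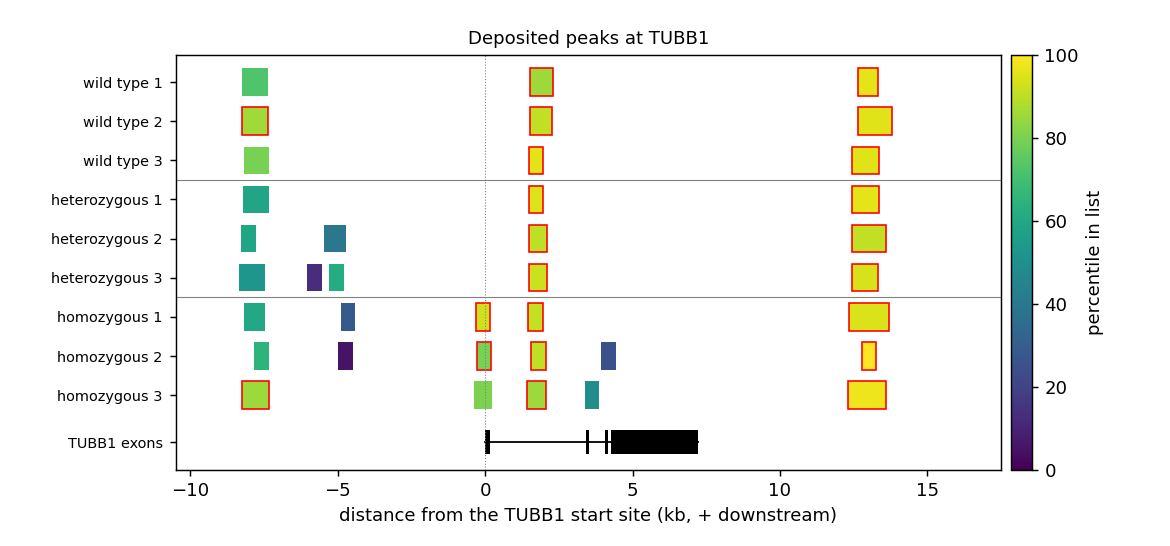
Peaks of the full lists around TUBB1, by distance from its start site in kb (horizontal axis), with 1 row per library; colour gives the percentile of −log10 p and red outlines mark peaks among the 50000 strongest. Peaks at the start site appear in the 3 homozygous rows only, while the intron peak 1878 bp downstream appears in all 9.

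ITGA2B and ITGB3 encode the 2 chains of integrin alpha-IIb beta-3, the fibrinogen receptor through which platelets aggregate. ITGA2B (chr17:42449548-42467017, − strand) was open at an internal start in all 9 libraries and at its canonical start in some of them. The site at chr17:42462266-42463362, 106 bp from the start of a shorter protein-coding transcript and overlapping 5 exons of the canonical one, was among the 50000 strongest in all 9 libraries. Its percentiles were 90.3, 95 and 89.2 in wild type, 89.2, 81.7 and 81.7 in heterozygous and 85.2, 91.5 and 89.1 in homozygous libraries. The interval of wild type replicate 3 was identical to that of heterozygous replicate 1. At the canonical promoter, chr17:42467028-42467527, wild type replicates 1 and 2 had percentiles of 85 and 81.9, and wild type replicate 3 and all heterozygous libraries had no peak. Homozygous replicates 1 and 3 had 0.737 and 52.9 there, and homozygous replicate 2 had none. Wild type libraries were thus split, and the groups overlapped.

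Outside its promoters ITGA2B had a site 4216 bp upstream, at chr17:42470984-42471483, which every full list held. Its percentiles were 64.8, 81.6 and 72.6 in wild type, 65.9, 67.5 and 18.5 in heterozygous and 74.3, 74.4 and 80.1 in homozygous libraries. All homozygous libraries were above the heterozygous ones, and wild type overlapped both. The promoter of the neighbour FAM171A2, at chr17:42440946-42441464, was at 67.8 and 66.6 in wild type replicates 1 and 2 and had no peak in wild type replicate 3 or in any heterozygous library. The homozygous libraries had 74.9, 93.5 and 71.5 there, above all 6 others (exact permutation p = 0.0143, adjusted p = 0.207 by Benjamini-Hochberg).

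ITGB3 (chr17:45331193-45391109, + strand) had a weak promoter peak in every full list. At chr17:45331065-45331564 the percentiles were 18.6, 43.9 and 76.8 in wild type, 76.8, 77.4 and 66.7 in heterozygous and 63.0, 63.5 and 78.6 in homozygous libraries, and 1 heterozygous library had it among its 50000 strongest. The groups overlapped. Of its 4 intronic sites, the one with the highest median, chr17:45343292-45343823, 12364 bp downstream of the start, was at 87.3, 87.4 and 82.6 in wild type, 65.9, 0 and 47.0 in heterozygous and 62.5, 81.7 and 96.8 in homozygous libraries. All wild type libraries were above the heterozygous ones, and the homozygous libraries spread over both. An intronic site at chr17:45335267-45335766 was at 43.9 in wild type replicate 2 and had no peak in the other wild type and all heterozygous libraries. The homozygous libraries had 46.4, 87.2 and 48.8 there (exact permutation p = 0.0357, adjusted p = 0.21 by Benjamini-Hochberg).

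GP1BA and GP9 encode chains of the glycoprotein Ib-IX-V complex, the platelet receptor for von Willebrand factor. GP1BA (chr17:4835572-4838318, + strand) had no promoter peak in any full list. Its only site among the 50000 strongest was the shared promoter of the neighbours RNF167 and SLC25A11, at chr17:4842688-4844456, which was at percentile 83.9 to 96.4 and was found in all 9 libraries. GP9 (chr3:128779622-128781249, + strand) had a promoter peak in homozygous replicate 3 only, at percentile 12.3 of the longest list. The GP9 site 6010 bp upstream, at chr3:128773286-128773938, was in every full list, at 78.0, 78.3 and 86.2 in wild type, 86.0, 77.4 and 76.7 in heterozygous and 46.4, 81.7 and 56.7 in homozygous libraries. Homozygous replicates 1 and 3 were below all other libraries, and homozygous replicate 2 was within their range. It was among the 50000 strongest in 2 wild type, 3 heterozygous and 1 homozygous libraries.

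PF4 and PPBP encode platelet factor 4 and the precursor of beta-thromboglobulin, 2 chemokines stored in alpha granules. They lie side by side on chromosome 4 (PF4 at chr4:74846528-74847744 and PPBP at chr4:74852156-74853907, both − strand) and share a site. This site, chr4:74856651-74857150, was found in heterozygous replicate 3 alone, at percentile 82.3, and it was the only site of either gene among the 50000 strongest. The PF4 promoter had a peak in homozygous replicate 3 only, at 62.3, and the PPBP promoter had none in any list. With 0.524 and 0.511 peaks per 100 kb, PF4 and PPBP had the thinnest cover of the 9 genes.

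SELP encodes P-selectin, the adhesion molecule that moves from alpha granules to the platelet surface. SELP (chr1:169558087-169599431, − strand) had no promoter peak among the 50000 strongest. In the full lists its promoter peaks lay at different starts. Heterozygous replicate 3 had one at 42.3, in a site 11628 bp downstream of the canonical start. Homozygous replicates 2 and 3 had peaks at 8.57 and 38.7, in a site centred 36 bp from the canonical start. A site centred 1120 bp downstream of the canonical start was at 25.9 in wild type replicate 3 and at 31.4 and 26.9 in heterozygous replicates 1 and 3. In wild type replicate 3 and heterozygous replicate 1 the peak's centre there lay beyond 1 kb of any SELP start. These were thus not promoter peaks. The most constant sites of SELP lay towards its 3′ end. One, at chr1:169555235-169556805, was the promoter of the coagulation factor gene F5, at 83 to 99.6 in all 9 libraries. Another overlapped 1 exon of SELP at chr1:169564893-169565595 and was at 75.7 to 93.5 in all 9. At the intronic site chr1:169570265-169570799 the percentiles were 80.5, 83.1 and 93.4 in wild type, 92.1, 95.7 and 79.6 in heterozygous and 78.3, 60.6 and 62.3 in homozygous libraries. All homozygous libraries were below the 6 others there (exact permutation p = 0.0429, adjusted p = 0.228 by Benjamini-Hochberg).

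VWF encodes von Willebrand factor, the multimeric protein that tethers platelets to damaged vessel walls. VWF (chr12:6058043-6233936, − strand) had no promoter peak in any full list. Its strongest site was intronic, at chr12:6124347-6125073, 109126 bp downstream of the start. The percentiles there were 98.7, 99.5 and 93.9 in wild type, 93.5, 89.7 and 96.0 in heterozygous and 88.8, 89.6 and 90.4 in homozygous libraries. The fold enrichment by the authors' caller was 12, 14.1 and 7.63 in wild type and 6.18, 5.73 and 6.05 in homozygous libraries. All homozygous libraries were below the wild type ones, and heterozygous libraries overlapped both (exact permutation p = 0.0464, adjusted p = 0.236 by Benjamini-Hochberg). Among the 20000 strongest peaks this site was held by the 3 wild type and by none of the homozygous libraries. Several ranks lay near that cut. The peak ranked 20428, 20662 and 30797 in the homozygous libraries, 20369 in heterozygous replicate 2 and 17500 in wild type replicate 3. The share of all sites separated at this depth is not given here.

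Upstream of VWF, at chr12:6242201-6242963 and 8746 bp from the start, a site was among the 50000 strongest in all 3 homozygous libraries and in none of the wild type ones. The percentiles were 78.3, 81.7 and 84.8 in homozygous libraries, 82.6 in wild type replicate 3 and 82.4 in heterozygous replicate 1, and the other 4 libraries had no peak. The peaks of wild type replicate 3 and heterozygous replicate 1 had identical coordinates. In wild type replicate 3 this peak ranked 50474, with the same −log10 p as the peak ranked 50000. With all such tied peaks kept, wild type replicate 3 also held the site. At 2 further sites within VWF, chr12:6074998-6075497 and chr12:6134564-6135063, the same pair of libraries had identical intervals, and of the other 7 libraries only homozygous replicate 3 had a peak.

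**Figure D3:**
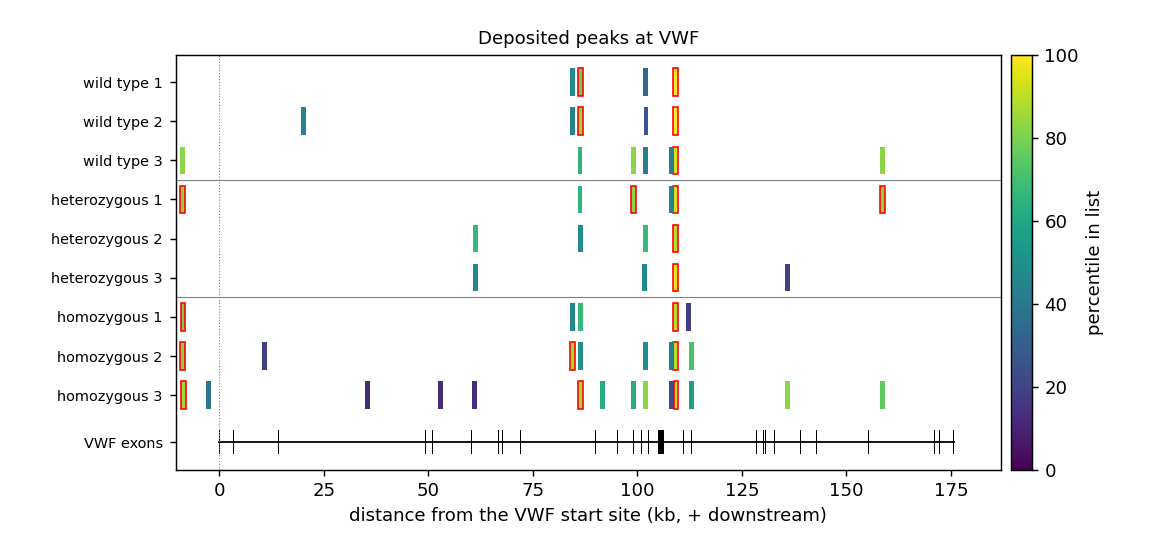
Peaks of the full lists around VWF, by distance from its start site in kb (horizontal axis), with 1 row per library; bars are drawn at a minimum width, colour gives the percentile of −log10 p and red outlines mark peaks among the 50000 strongest. The intronic peak 109126 bp downstream stands in all 9 rows, no row has a peak at the start site, and the peak 8746 bp upstream stands in 5 rows.

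Counted over the 9 genes, the wild type libraries had 12, 10 and 9 of their 50000 strongest peaks at these genes (10.3 ± 1.53, SD, n = 3). The heterozygous libraries had 13, 10 and 12 (11.7 ± 1.53, SD, n = 3), and the homozygous libraries had 13, 15 and 11 (13 ± 2, SD, n = 3). The ranges overlapped. Homozygous minus wild type was 2.67 peaks, and leaving out homozygous replicate 2 gave 1.67 and leaving out replicate 3 gave 3.67. Ties at rank 50000 entered this difference. At the 9 genes 3, 1 and 5 peaks of the wild type libraries had exactly the −log10 p of that rank, and 0 peaks of the mutant libraries did. With all tied peaks kept the difference was 0.667.

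Over the full lists wild type libraries had 29, 34 and 36 peaks at the 9 genes, heterozygous ones 37, 25 and 29, and homozygous ones 33, 40 and 56. As a share of all peaks of a list the wild type libraries had 0.0122% ± 0.000939 there, the heterozygous ones 0.0139% ± 0.00104 and the homozygous ones 0.0186% ± 0.00138 (SD, n = 3 each). The homozygous shares, 0.0175% to 0.0202%, were above those of all 6 other libraries. Chromosome 17, which carries ITGA2B, ITGB3 and GP1BA, held 1.25% ± 0.0519 of all wild type peaks, 1.30% ± 0.0381 of the heterozygous and 2.05% ± 0.0842 of the homozygous ones (SD, n = 3 each), and its part in the share of the 9 genes was not tested. Peaks near any protein-coding gene were 52.5% ± 1.05, 55.2% ± 1.56 and 56.9% ± 0.934 of the 3 genotypes' lists (SD, n = 3 each).

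**Figure D4:**
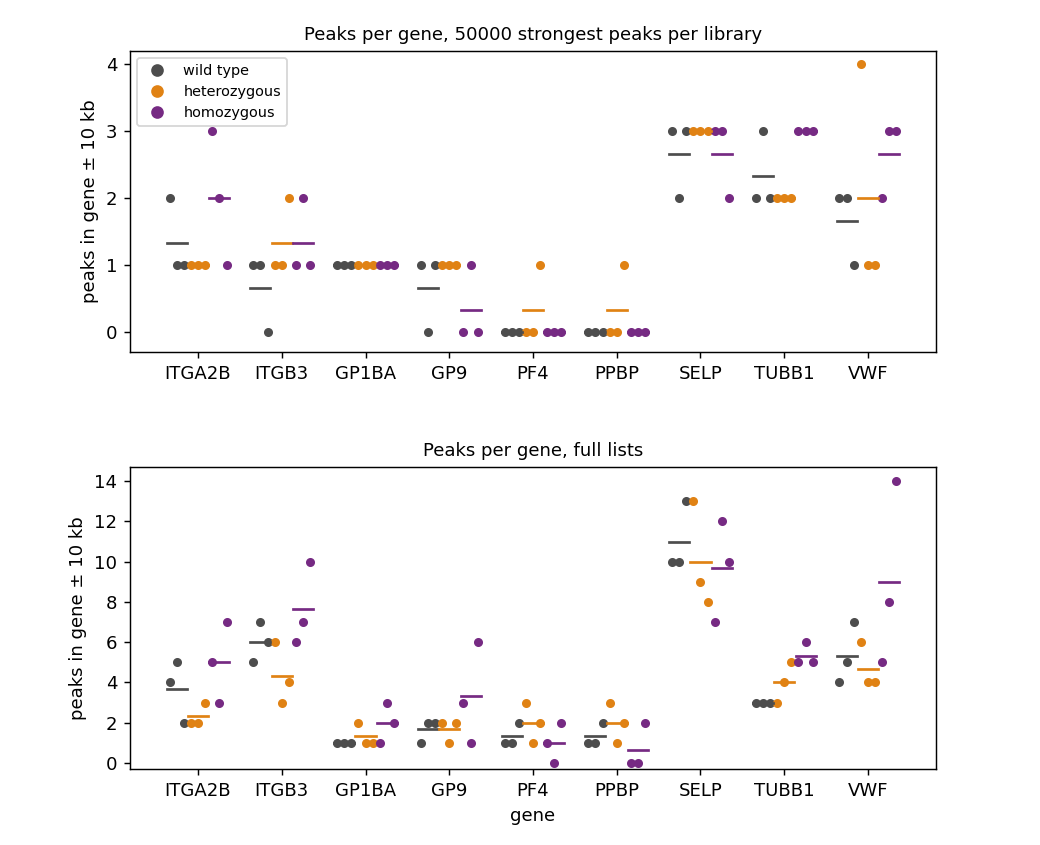
Number of peaks at each of the 9 genes per library among the 50000 strongest and in the full lists, with 1 point per library coloured by genotype and bars for the means. In the full lists TUBB1 has 5 or 6 peaks in each homozygous library and 3 in each wild type library, and at the other 8 genes homozygous and wild type libraries overlap.

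The number of peaks per gene was tested across genotypes by exact permutation over 280 assignments, whose smallest p is 0.00357. Among the 50000 strongest peaks none of the 9 genes passed after Benjamini-Hochberg adjustment over 18504 genes, none had an unadjusted p under 0.05 (8.11% of all genes did), and no gene of any kind passed the adjustment. For the percentile per site, none of the 26 sites and none of all 106131 passed the adjustment by this exact permutation test. An unadjusted p under 0.05 was found at 5 of 26 sites, the ones named above at ITGA2B, ITGB3, SELP, TUBB1 and VWF, beside 19.7% of all sites.

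Against wild type, the homozygous libraries separated 1 of 21 sites by presence among the 50000 strongest, the VWF upstream site, beside 6.22% of all sites. With ties kept it was 0 of 23, beside 6.18% of all sites. Without homozygous replicate 3 it was 3 of 21, beside 9.88% of all sites, with the TUBB1 promoter and the FAM171A2 promoter added. Of 78 full-list sites 2 separated these genotypes, beside 3.31% of all sites. The TUBB1 promoter was in the homozygous libraries only (0.958% of all sites), and an exonic site of SELP at chr1:169578549-169579198 was in the wild type ones only (2.35% of all sites), at percentiles of 71.7, 70.2 and 22.4. By percentile, all homozygous libraries were above all wild type ones at 3 of 25 sites (9.67% of all sites) and below them at 2 of 25 (18.3% of all sites). The 3 were the TUBB1 promoter, the FAM171A2 promoter and the ITGB3 intron site, and the 2 were in SELP and VWF. Against all 6 other libraries the homozygous ones were above at the same 3 of 26 sites (7.85% of all sites) and below at the SELP site (8.72% of all sites).

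Between heterozygous and wild type libraries 0 of 20 sites were separated by presence among the 50000 strongest, beside 0.937% of all sites. With ties kept it was 1, the ITGB3 intron site at 12364 bp, in wild type only, beside 0.863% of all sites. Without wild type replicate 3, whose list shares many intervals with heterozygous replicate 1, it was 2 of 20, beside 10.1% of all sites. Without heterozygous replicate 2 it was 1 of 19, beside 1.68% of all sites. Of 60 full-list sites 0 were separated, beside 1.01% of all sites. By percentile, the heterozygous libraries were above wild type at 1 of 25 sites (2.04% of all sites), the F5 promoter, and below at 4 of 25 (11.4% of all sites). The 4 were the ITGA2B internal start, the ITGB3 intron site at 12364 bp, the exonic SELP site found in all 9 libraries and the TUBB1 site at 7794 bp upstream.

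Between homozygous and heterozygous libraries 0 of 25 sites were separated among the 50000 strongest, beside 6.57% of all sites. Leaving out heterozygous replicate 1 gave 1 of 23 (10.3% of all sites) and leaving out homozygous replicate 2 gave 1 of 22 (10.6% of all sites). Leaving out homozygous replicate 1 gave 2 of 24 (10.4% of all sites) and leaving out replicate 3 gave 2 of 23 (10.2% of all sites). With the full lists it was 3 of 82, beside 2.75% of all sites. All 3 were in the homozygous and in none of the heterozygous libraries, beside 1.46% of all sites in that direction. They were the TUBB1 promoter, the FAM171A2 promoter and the ITGB3 intron site that wild type replicate 2 also held. By percentile, homozygous libraries were above heterozygous ones at 5 of 26 sites (14% of all sites) and below at 1 of 26 (13.2% of all sites), the SELP intron site.

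**Figure D5:**
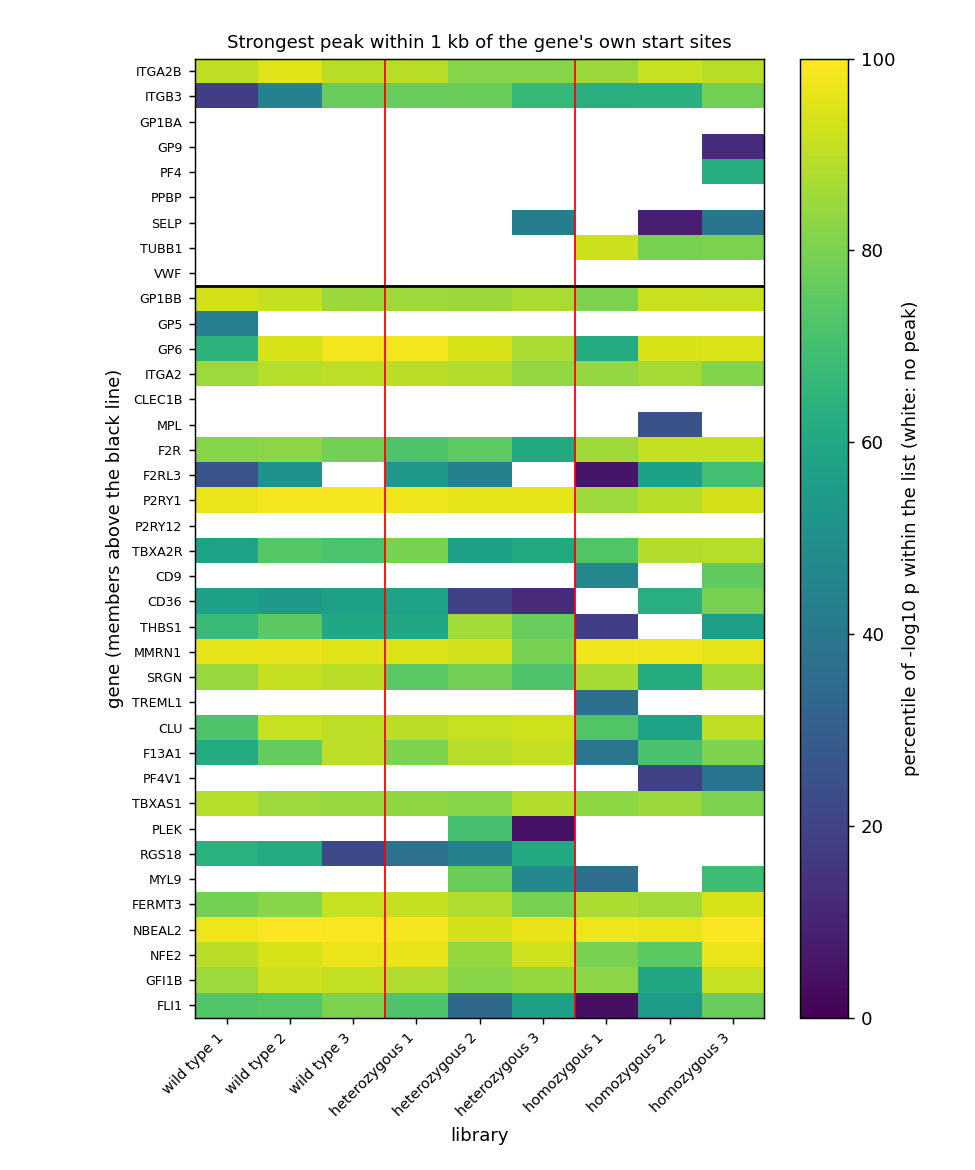
Percentile (colour) of the strongest peak within 1 kb of a start site of the gene in each library's full list (columns), for the 9 genes above the black line and 29 other megakaryocyte and platelet genes below it (rows); white means no peak. ITGA2B is high in all 9 libraries, ITGB3 spreads from 18.6 to 78.6, TUBB1 is white in 6 libraries and at 79.5 to 92.5 in the homozygous ones, and GP1BA, PPBP and VWF are white throughout.

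Other genes of the lineage were counted from a list of 29 megakaryocyte and platelet genes: 13 surface receptors, 7 granule proteins, 6 genes of signalling, enzymes and cytoskeleton, and 3 transcription factors. Their own promoters had a peak among the 50000 strongest in all 9 libraries at 4 genes and in at least 1 library at 17. With the full lists these counts were 16 and 27. None of them had an own-promoter peak in the 3 homozygous libraries and in 0 of the 6 others. None of the 26 with a peak among the 50000 strongest passed the adjusted exact permutation test for peak number, and 4 had an unadjusted p under 0.05, beside 8.11% of all genes. These were TBXA2R, MMRN1, RGS18 and GFI1B.

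TBXA2R, the receptor for thromboxane A2, was the 1 gene of the 29 whose own promoter was among the 50000 strongest in all homozygous and in none of the wild type libraries, beside 1.04% of all genes. Its promoter was in every full list, at percentiles of 58.1, 73.7 and 71.8 in wild type, 79.7, 57.1 and 60.7 in heterozygous and 72.8, 88.5 and 88.9 in homozygous libraries. The percentiles overlapped. The promoter of RGS18, a regulator of G-protein signalling in platelets, was the 1 of the 29 found in the full lists of all wild type and no homozygous libraries, beside 0.657% of all genes. It was at 63.9, 61.6 and 22.0 in wild type, 37.3, 44 and 61.2 in heterozygous libraries and had no peak in the homozygous ones. RGS18 had 10, 14 and 9 full-list peaks in wild type, 9, 11 and 8 in heterozygous and 0, 1 and 4 in homozygous libraries (exact permutation p = 0.0214, adjusted p = 0.346 by Benjamini-Hochberg). Neither gene passed the adjusted test.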

How the data were processed

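The labels describe ATAC-seq on 9 K562 libraries with single-end reads of 100 bp. Per the submitters' processing notes the tools were cutadapt, Bowtie2 2.2.9, Picard and MACS2 2.1.0, on hg19 (GRCh37); their settings, and whether reads were shifted for the Tn5 offset, are not given in the sources used here. The deposited files are 1 narrowPeak list per library. Each peak carries, as deposited, a display score, a fold enrichment (a linear ratio over local background), a p-value as −log10 and a q-value as −log10, all from the authors' caller and used only to rank, filter or describe peaks within a list. The lists give no read counts, so no interval that needs depth is given. The last column, another number, was deposited as a summit offset. In 2917 single-summit intervals of 500 bp a CTCF motif lay within 50 bp of 7.37% of interval centres but of 0.583% of the positions it gives, so interval centres were used.

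Peaks on chromosomes 1 to 22 and X were ranked by −log10 p. The 50000 highest per library, and separately the full lists, were merged where they overlapped by 1 bp. A percentile is that of the highest overlapping peak within its full list. Genes came from GENCODE release 44 mapped to GRCh37. A site separates 2 genotypes when 3 of 3 libraries of one and 0 of 3 of the other have it. The exact permutation test used the sum of squares between genotypes over 280 assignments, two-sided in effect (smallest p 0.00357), with Benjamini-Hochberg adjustment over all sites or genes and a threshold of 0.05. A pair of genotypes cannot go below 0.1 and was not tested. Scripts were tested on simulated data and ran in Python 3.11.15 with numpy 2.4.6, pandas 2.3.3 and scipy 1.17.1. Named in the text are the 9 genes, the promoter and the distal site of highest median percentile of each, separating sites and, of 29 further genes, those whose promoter separates genotypes; other sites with non-overlapping genotypes, and MMRN1 and GFI1B, were named after their values were seen. The genes and lists were chosen with earlier results of these data known. Alternatives changed the depth of the lists, the ranking, the overlap, the window, ties and single libraries. Some sequences are not reported here.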

Additional observations from a re-analysis of the deposited data

How the results depend on the processing

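The difference in peaks at the 9 genes, homozygous minus wild type, was 2.67 among the 50000 strongest. It was 0.333 with 20000 peaks, 6.67 with 100000, 10 with the full lists, −0.667 with −log10 q of at least 5, 0.333 with gene bodies only, 4.67 with 25 kb around the genes, 0.667 by fold enrichment and 0.667 with ties kept, and 1.67 to 3.67 with single libraries left out. Sites that separate homozygous from wild type numbered 1. There were 2 in the full lists, 0 with −log10 q of at least 5, 0 by fold enrichment, 0 with all tied peaks kept (an alternative chosen after seeing the data) and 0 when absence from the full list was required, and 1 to 3 with single libraries left out. With 100000 peaks the number was also 1, but it was the TUBB1 promoter, in the homozygous and none of the wild type libraries. With 20000 peaks it was 1 again, the VWF intron site, in the wild type and none of the homozygous libraries. In homozygous replicates 1 and 2 the VWF intron site ranked 20428 and 20662. Sites that separate heterozygous from wild type numbered 0, with 1 by fold enrichment, 1 with ties kept and 0 to 2 with single libraries left out. Sites that separate homozygous from heterozygous numbered 0, with 2 at 100000 peaks, 3 in the full lists and 0 to 2 with single libraries left out. With single libraries left out, the shares over all sites were 7.56% to 12.5% for homozygous against wild type. They were 1.24% to 10.1% for heterozygous against wild type and 8.9% to 10.6% for homozygous against heterozygous. Shares at 20000 or 100000 peaks, by −log10 q, by fold enrichment and with absence from the full list required are not given here. Counts at these settings are thus not results about the 9 genes. The cause of the changes between settings was not tested. Adjusted calls for peak number and for percentile were 0 throughout; no gene or site of the series passed, and at a site the smallest p of 0.00357 adjusted to 0.207, so these counts say nothing about stability. The difference in percentile at the TUBB1 promoter, 84.1, was 79.9 to 86.4 with single homozygous libraries left out. Leaving out any other library could not change it, since all wild type values were 0 and heterozygous libraries do not enter it. Same-numbered libraries did not deviate together: their correlations ran from −0.335 to 0.179, 1 of 9 was above 0.1, and 1 of 9 libraries correlated best with its own number. With the replicate number as a block the difference in peaks was 2.67 and the adjusted calls were 0, and a block allows no p under 0.0278. Placing peaks by the deposited offset instead of the centre was not run, since the offset did not mark the summit. Peaks near the caller's threshold depend on a depth that is unknown, so a missing peak is not shown to be closed chromatin.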

Other observations

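Sites between 10 and 25 kb from the 9 genes were also examined. A site at chr17:45307065-45307589, upstream of ITGB3 and 9930 bp from a start of MYL4, a myosin light chain gene, was among the 50000 strongest peaks in the 3 homozygous libraries and in none of the 6 others. Its percentiles in the full lists were 47.6, 43.9 and 65.0 in wild type, 65.9, 67.5 and 47.0 in heterozygous and 78.3, 81.7 and 92.0 in homozygous libraries (exact permutation p = 0.0429, adjusted p = 0.228 by Benjamini-Hochberg over all sites). Every library therefore had a peak there, and the homozygous ones were the strongest.

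Beyond the 3′ side of TUBB1, the promoter of PRELID3B at chr20:57616875-57618589 was found in all 9 libraries. Its percentiles were 82.0, 89.7 and 89.7 in wild type, 90.0, 91.3 and 90.2 in heterozygous and 94.8, 95.9 and 96.1 in homozygous libraries (exact permutation p = 0.00357, the smallest the test can give, and adjusted p = 0.207 by Benjamini-Hochberg). The genotypes did not overlap there. Another site upstream of ITGB3, at chr17:45317424-45317923, went the other way, with all wild type libraries above the 6 others. Its percentiles were 83.5, 78.3 and 42.01 in wild type, 16.3, 0 and 0 in heterozygous and 0, 0 and 19.97 in homozygous libraries. The exact permutation test gave p = 0.0357 there, with adjusted p = 0.21 by Benjamini-Hochberg. All of these flanking sites were chosen after their values were seen, and 7.85% of all sites had all homozygous libraries above the 6 others.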
